A study of Mus musculus with 16 samples.

Results

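Mammary adipose tissue of mice that had lost weight after sleeve gastrectomy was compared with that of mice that had remained obese. The comparison took 8 of the 16 libraries of the series, namely the 4 DIO-VSG libraries, titled as surgical weight loss, and the 4 DIO-HFD libraries, titled as obese. It covered all 23179 listed genes, of which 21218 had at least 10 normalized counts in at least 4 of the 16 libraries and were tested. A normalized count is the number of reads of a gene in a library divided by that library's size factor.

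Female C57BL/6N mice (C57BL/6NCrl in the study's methods) of wt genotype were made obese on the high-fat diet D12492 (60% fat), a state termed diet-induced obesity (DIO). DIO-HFD mice stayed on that diet after a sham operation, whereas DIO-VSG mice had a vertical sleeve gastrectomy (VSG), in which much of the stomach is excised, and then ate a low-fat diet. Obese mice moved to the low-fat diet after a sham operation (DIO-LFD, n = 4) and sham-operated mice kept on the control diet D12450J throughout (CON-LFD, n = 4) served as references. All mice received E0771 mammary tumor cells in the fourth mammary fat pad 22 weeks after the first randomization, and RNA was taken at the end point from the contralateral pad. DIO-VSG thus differed from DIO-HFD in both the operation and the diet, and these cannot be told apart in this comparison. Each library came from 1 mouse, identified by animal number, and the labels gave no age. The labels also entered the tumor line as cell line, but the tissue was labelled as normal, and Adipoq, which encodes the adipocyte hormone adiponectin, stood at 30428 to 100491 normalized counts in DIO-HFD and 50432 to 68644 in DIO-VSG.

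White adipocytes take up and make fatty acids and store them as triglyceride. In de novo lipogenesis, acetyl-CoA carboxylase makes malonyl-CoA and fatty acid synthase builds palmitate from it, a pathway that insulin, dietary carbohydrate and the transcription factor SREBP-1 promote and that fat-rich diets hold down. Expanding fat is also known to deposit extracellular matrix and to gather lipid-laden macrophages, and the mammary pad holds epithelial ducts, vessels and, in its inguinal part, a lymph node.

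Library totals ranged from 46907377 to 57610899 reads. With limma-trend, 0 of 21218 genes passed an adjusted p of 0.05 between DIO-VSG and DIO-HFD (0% of genes), the smallest adjusted p being 0.243. At an unadjusted p of 0.05, 1071 genes were higher in DIO-VSG (5.05%) and 1723 lower (8.12%), so that higher genes made up 38.3% of them. That share depended on the setting, being 22.0% with scaling to library totals, 60.2% in a fit that also held a B cell gene score, and 68.3% (852 higher and 395 lower) without DIO-HFD replicates 2 and 3, so which direction held more genes was not stable. In 503 genes all DIO-VSG libraries lay above all DIO-HFD libraries (2.37%), and in 896 they lay below (4.22%). The same adjusted threshold was passed by 0 genes with limma voom, 1 gene with scaling to library totals and 3739 genes when each library was weighted by limma. In the weighted fit DIO-HFD replicate 4 received a weight of 10.92 against 0.22 to 2.35 for the other libraries, so those calls rest largely on 1 DIO-HFD library. Higher and lower below therefore describe levels and unadjusted tests, and no gene is said to have changed.

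**Figure D1:**
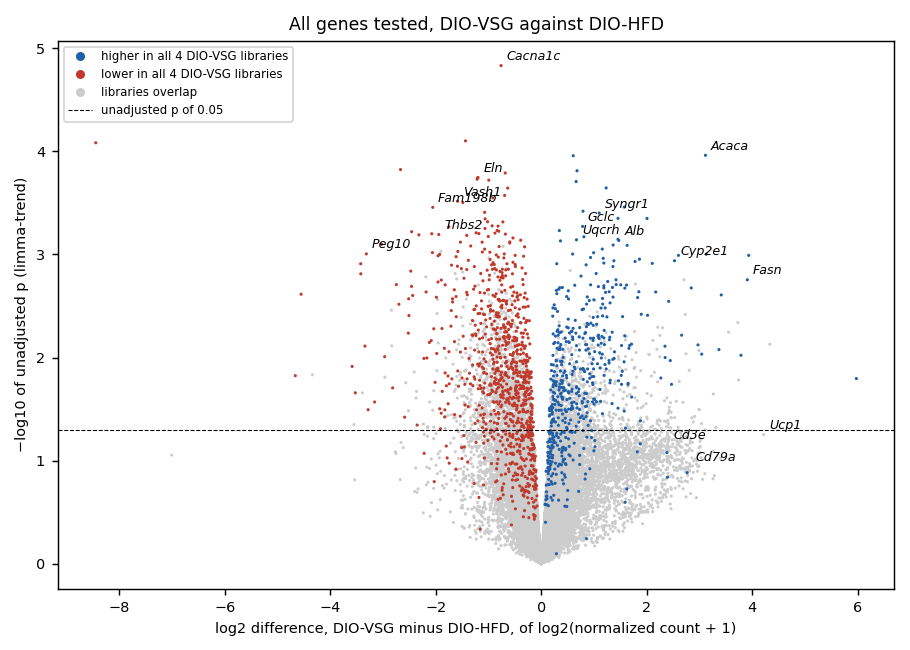
Each point is 1 of 21218 tested genes, with the log2 difference between DIO-VSG and DIO-HFD (of log2 of normalized count + 1) on the x axis and −log10 of the unadjusted limma-trend p on the y axis. Blue points are the 503 genes higher in every DIO-VSG library, red points the 896 lower in every one, and the dashed line is an unadjusted p of 0.05. Acaca and Fasn lie far to the right, while Cd3e and Cd79a, despite differences above 2, lie under the line.

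The 8 libraries differed in lymphoid transcripts, and this difference ran through DIO-HFD. A gene list was scored in each library by centering the log2 values of every member on its average in the 16 libraries and averaging over the members. For 24 T cell genes the score was 2.15, -2.15, -3.36 and 1.02 in DIO-HFD replicates 1 to 4 and 1.40 to 2.10 in DIO-VSG. For 23 B cell genes it was 2.12, -2.28, -3.72 and 1.40 in DIO-HFD and 1.52 to 1.75 in DIO-VSG. DIO-HFD replicates 2 and 3 thus stood far below the other 6 libraries, and replicates 1 and 4 lay close to the DIO-VSG range. Cd79a, a chain of the B cell receptor complex, had 15257, 541, 97.1 and 9376 normalized counts in DIO-HFD and 10396 to 13012 in DIO-VSG. Its log2 difference of 2.82 ± 1.67 (SE, adjusted p = 0.425) was -0.03 without DIO-HFD replicates 2 and 3. Ptprc, the pan-leukocyte CD45, showed the same split with 44902, 4130, 2591 and 21784 normalized counts in DIO-HFD and 27079 to 36136 in DIO-VSG. Ms4a1, the B cell antigen CD20, had 12252, 391, 60.0 and 6724 in DIO-HFD and 7512 to 9233 in DIO-VSG. In the same way Cd3e, a chain of the T cell receptor complex, had 4940, 208, 69.9 and 2352 in DIO-HFD and 2868 to 4974 in DIO-VSG.

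The median log2 difference was 2.20 over the T cell list and 2.57 over the B cell list, against 0.02 over all tested genes, yet in limma-trend 0 members of either list reached an unadjusted p of 0.05 and 0 were free of overlap. Without DIO-HFD replicates 2 and 3 the medians were -0.02 and -0.07, and without replicates 1 and 4 they were 4.42 and 5.19. Without DIO-HFD replicate 1 alone, 24 of 24 T cell and 19 of 23 B cell genes lay wholly higher in DIO-VSG, beside 13.4% of all genes. Without replicates 2 and 3, 0 of either list did. Other lists followed the same libraries. They were the genes of lymph node stroma and chemokines (15 genes, median 1.74), plasma cells (13 genes, 1.40), cytotoxic lymphocytes (16 genes, 0.69), regulatory T cells and checkpoints (16 genes, 0.77) and MHC class II presentation (10 genes, 0.79). In these lists 1 gene, of the regulatory T cell list, was higher at an unadjusted p of 0.05 and 0 were free of overlap. The plasma cell list turned without DIO-HFD replicates 2 and 3, to a median of -1.18 with 8 of 13 genes wholly lower in DIO-VSG, beside 8.5% of all genes. Neutrophil genes (12 genes, median 0.72, 0 calls in limma-trend) shared this split only in part. Their score was 1.63, -0.63, -1.32 and 0.32 in DIO-HFD and 0.25, 2.59, -0.07 and 0.61 in DIO-VSG. DIO-HFD replicates 2 and 3 were again the lowest, and DIO-VSG replicate 2 was the highest. The summed normalized counts of the list were 10891, 14697, 4167 and 6567 in DIO-HFD, with replicate 2 the highest there. Cxcl13, the chemokine that draws B cells into follicles, had 3780, 222, 21.8 and 2184 normalized counts in DIO-HFD and 2326 to 4829 in DIO-VSG. In bulk tissue, fewer cells of a type and less RNA per cell cannot be told apart. Because lymphoid content varied within DIO-HFD, list medians and several gene values below are also given without replicates 2 and 3, an alternative chosen after the data were seen. The part that lymphoid content had in the results was not tested beyond this and a fit that held the B cell score.

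**Figure D2:**
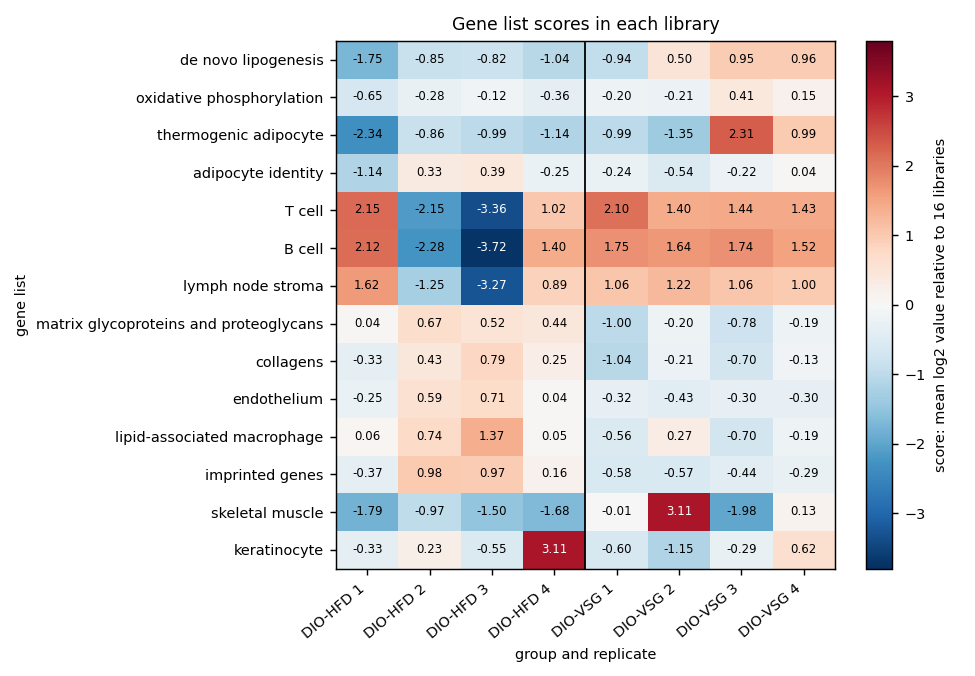
Heat map of gene list scores (mean log2 value relative to the 16 libraries, color scale and printed values) for 14 lists in rows and the 8 libraries in columns. T cell, B cell and lymph node stroma scores are negative only in DIO-HFD replicates 2 and 3, and the lipogenesis score is above 0 in DIO-VSG replicates 2, 3 and 4.

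Genes of fatty acid synthesis were higher in DIO-VSG, though less so in 1 mouse. Acaca, which encodes acetyl-CoA carboxylase 1 (chr11:84129672-84401651, plus strand, GRCm38), had 4712, 11640, 9778 and 8210 normalized counts in DIO-HFD replicates 1 to 4 and 19535, 83395, 118106 and 128629 in DIO-VSG. The groups did not overlap, and DIO-VSG replicate 1 was the lowest of its group. Its mean was 10.18-fold higher in DIO-VSG, and the log2 difference was 3.11 ± 0.59 (SE, adjusted p = 0.243). Fasn, fatty acid synthase (chr11:120805846-120824547, minus strand), had 10120, 23536, 35461 and 20232 in DIO-HFD against 60159, 455881, 604113 and 522963 in DIO-VSG. Again every DIO-VSG library was above every DIO-HFD library and replicate 1 stood below its group (log2 difference 3.91 ± 1.02, adjusted p = 0.246). Acss2, the cytosolic enzyme that makes acetyl-CoA from acetate, had 1343 to 1889 in DIO-HFD and 2500, 13843, 11034 and 15789 in DIO-VSG, a log2 difference of 2.42 ± 0.67. Srebf1, which encodes SREBP-1, differed less, with 5739, 7626, 7174 and 8827 in DIO-HFD and 9866, 10960, 15065 and 13749 in DIO-VSG, a log2 difference of 0.75 ± 0.19 without overlap. Scd1, the stearoyl-CoA desaturase that took up to 5.462% of the reads of a DIO-VSG library, overlapped between the groups, with 451143 to 1234063 in DIO-HFD and 1089040 to 2916184 in DIO-VSG.

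Over the lipogenesis list, 14 of 26 tested members were higher at an unadjusted p of 0.05 and 0 lower, against 5.05% and 8.12% of all genes. The median log2 difference was 1.21, and 4 members were free of overlap, beside 2.37% of all genes. Without DIO-HFD replicates 2 and 3, 13 were, beside 9.61%, but without replicate 1 the count was 4 beside 13.4% and without replicates 1 and 4 it was 8 beside 25.7%, shares near the background. The median was 1.57 without replicates 2 and 3 and 1.01 without replicates 1 and 4, and in a fit that also held the B cell score it was 1.46. In DIO-VSG the list score was -0.94 in replicate 1, inside the DIO-HFD range of -1.75 to -0.82, and 0.50 to 0.96 in the other mice. Slc2a5, a fructose transporter, showed this split clearly. It had 14.5 normalized counts in DIO-VSG replicate 1 and 502, 744 and 790 in replicates 2 to 4, against 6.55 to 34.3 in DIO-HFD. Its log2 difference, 4.33 ± 1.39 (SE), was 5.69 without DIO-VSG replicate 1.

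The promoters of Fasn and Acss2, which code for enzymes that make acetyl-CoA and build fatty acids, are shown because both genes were higher in every DIO-VSG library. They were read from RefSeq (GRCm38.p6) and span 250 bases before to 50 bases after the annotated start, with CCAAT or its reverse complement in capitals.
Fasn, chr11:120824498-120824797, minus strand: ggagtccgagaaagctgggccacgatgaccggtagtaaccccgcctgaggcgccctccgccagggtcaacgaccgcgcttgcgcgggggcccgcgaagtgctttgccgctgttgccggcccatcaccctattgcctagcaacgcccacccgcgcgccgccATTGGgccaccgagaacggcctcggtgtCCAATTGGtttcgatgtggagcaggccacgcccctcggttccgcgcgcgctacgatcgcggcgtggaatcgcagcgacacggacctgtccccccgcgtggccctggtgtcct
Acss2, chr2:155517793-155518092, plus strand: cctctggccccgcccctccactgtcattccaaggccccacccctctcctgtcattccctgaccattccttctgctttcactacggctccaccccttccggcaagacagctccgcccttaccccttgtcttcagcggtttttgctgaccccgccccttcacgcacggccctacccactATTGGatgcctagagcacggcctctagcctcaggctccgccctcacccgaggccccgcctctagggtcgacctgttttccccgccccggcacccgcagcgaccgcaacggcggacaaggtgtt
The Fasn window held 3 matches, 2 of them overlapping each other, and the Acss2 window 1 match. Both strands were searched for the CCAAT box itself, the GC box GGGCGG, the E-box CACGTG, the sterol response letters TCACNCCAC, the octamer ATGCAAAT and the TATA box TATAAA. Promoters were found for 22 of the 26 lipogenesis genes, 27 windows in all, and CCAAT was present in 55.6% of these windows against 37.4% of all 32851 windows. GGGCGG was present in 51.9% against 35.7%, CACGTG in 14.8% against 7.15% and TCACNCCAC in 3.7% against 1.24%. ATGCAAAT was found in 3.7% against 1.74% and TATAAA in 3.7% against 13.6%. A match is a description of letters and not a binding site.

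**Figure D3:**
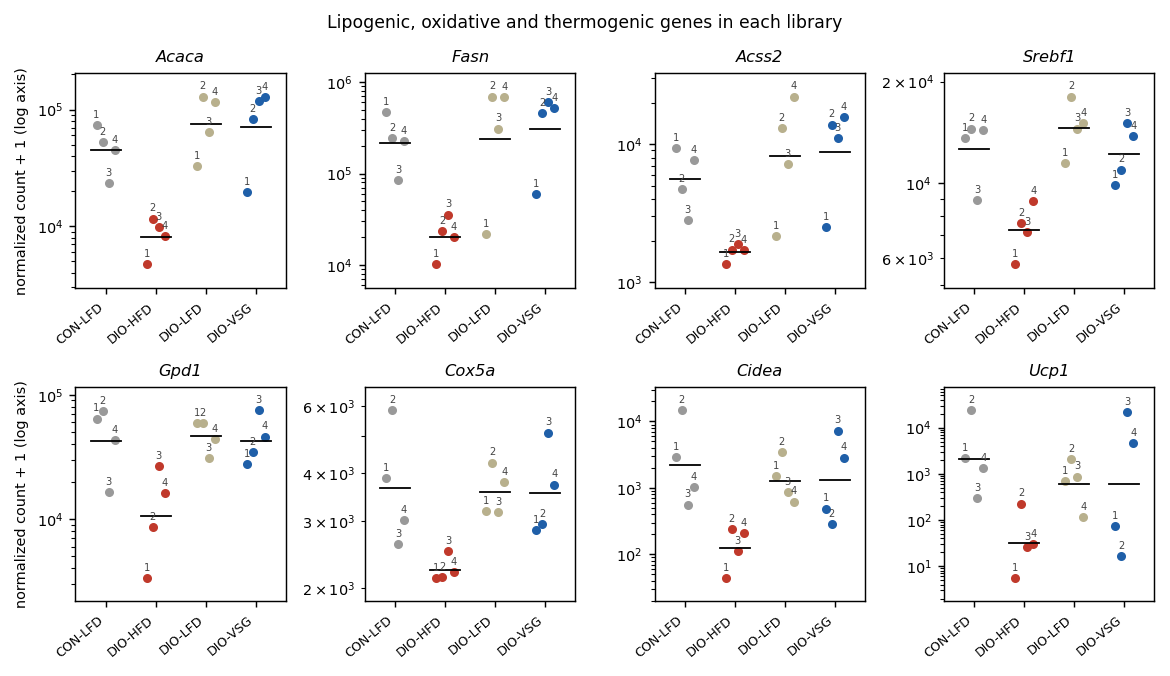
Normalized counts + 1 on log axes for 8 metabolic genes in the 4 groups, with 1 point per library numbered by replicate and the mean of log2 values as a line. DIO-VSG replicate 1 lies below the other DIO-VSG mice for Acaca, Fasn and Acss2, and DIO-VSG replicates 3 and 4 carry the highest Ucp1 and Cidea values of that group.

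Among 14 tested genes of triglyceride assembly, 5 were higher at an unadjusted p of 0.05 (beside 5.05% of all genes), 4 were free of overlap (beside 2.37%), and the median log2 difference was 0.48. The list depended on which DIO-HFD mice were kept. The median was 0.79 without DIO-HFD replicates 2 and 3, and it was 0.20 without replicates 1 and 4, where 4 genes lay wholly higher and 4 wholly lower, beside 25.7% and 23.5% of all genes. Gpd1, which makes glycerol-3-phosphate, had 3360, 8576, 26531 and 16065 normalized counts in DIO-HFD and 27608, 34332, 75354 and 46075 in DIO-VSG, a log2 difference of 2.02 ± 0.59. DIO-HFD replicate 3 came close to the lowest DIO-VSG library, and the groups did not overlap. Agpat2, an acyltransferase of the same pathway, differed by 1.57 ± 0.54 and Dgat1, which adds the last acyl chain, by 0.79 ± 0.28, which was 0.52 without DIO-HFD replicate 1. In the insulin and glucose list, 5 of 15 genes were higher (beside 5.05% of all genes) and 0 were free of overlap (median 0.25). There 6 lay wholly higher without DIO-HFD replicates 2 and 3, beside 9.61% of all genes, and 1 higher and 1 lower without replicates 1 and 4, below the background. Gys2, a glycogen synthase, ranged from 128 to 943 normalized counts in DIO-HFD and from 771 to 2481 in DIO-VSG. Pck1, which feeds glycerol synthesis in fat, ranged from 38859 to 75756 in DIO-HFD and 62307 to 145409 in DIO-VSG. Lipolysis (11 genes, median 0.08), cholesterol synthesis (22 genes, 0.06) and branched-chain amino acid breakdown (20 genes, 0.12) had medians near 0.02, that of all genes. At an unadjusted p of 0.05, 3 of the 22 cholesterol genes were higher (beside 5.05% of all genes) and 0 members of the other lists were. For lipolysis the sign depended on the DIO-HFD mice kept, with a median of 0.53 without replicates 2 and 3 and -0.36 without replicates 1 and 4, where 7 of 11 genes lay wholly lower, beside 23.5% of all genes.

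Nuclear-encoded subunits of oxidative phosphorylation stood slightly higher in most genes, and mainly in DIO-VSG replicates 3 and 4. The list score was -0.20, -0.21, 0.41 and 0.15 in DIO-VSG replicates 1 to 4, against -0.65 to -0.12 in DIO-HFD. DIO-VSG replicates 1 and 2 thus lay within the DIO-HFD range. Of 50 genes, 49 had a positive log2 difference, 16 were higher at an unadjusted p of 0.05 (beside 5.05% of all genes) and 13 were free of overlap (beside 2.37%), with a median of 0.39. Without DIO-HFD replicates 2 and 3 the median was 0.56 and 47 of the 50 were free of overlap, beside 9.61% of all genes. Without replicates 1 and 4 the median was 0.25 and 13 of the 50 were free of overlap beside 25.7% of all genes, a share near the background, and without replicate 1 alone 13 were, beside 13.4%. Uqcrh, a subunit of complex III, had 4426, 4287, 4005 and 4594 normalized counts in DIO-HFD and 6082, 5685, 8948 and 7203 in DIO-VSG. The DIO-HFD libraries lay close together and DIO-VSG replicate 3 was the highest (log2 difference 0.67 ± 0.16, adjusted p = 0.243). Cox5a of complex IV had 2125 to 2498 in DIO-HFD and 2830 to 5110 in DIO-VSG, Ndufa6 of complex I 1960 to 2414 and 2677 to 3698, and Atp5c1 of the ATP synthase 6224 to 8131 and 8786 to 11495. In fatty acid oxidation, 17 of 20 genes had a positive difference and the median was 0.35 (0.64 without DIO-HFD replicates 2 and 3 and 0.02 without replicates 1 and 4). At an unadjusted p of 0.05, 1 was higher and 1 lower, beside 5.05% and 8.12% of all genes. The higher one was Cpt2, which works on the inner mitochondrial membrane, with 1718, 2731, 3818 and 3362 normalized counts in DIO-HFD and 3718, 3322, 7113 and 4896 in DIO-VSG. Acadvl and Hadha, enzymes of long-chain oxidation, overlapped, with log2 differences of 0.78 ± 0.41 and 0.63 ± 0.35. Without DIO-VSG replicate 3 these were 0.49 and 0.34, and that of Cpt2, 0.71, was 0.48 without DIO-HFD replicate 1. The lower one was Cpt1a, which admits long fatty acids to mitochondria, with 8346 to 10596 in DIO-HFD and 7195 to 8118 in DIO-VSG.

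Thermogenic genes had a median log2 difference of 1.41 over 18 tested members, 17 of them positive, but 2 mice carried it. Ucp1, the uncoupling protein of brown and beige fat, had 4.63, 226, 25.1 and 29.5 normalized counts in DIO-HFD and 72.6, 15.3, 21836 and 4658 in DIO-VSG. DIO-VSG replicates 3 and 4 were high, and replicates 1 and 2 lay within the DIO-HFD range (log2 difference 4.22 ± 2.03, adjusted p = 0.387). The list score was -0.99 and -1.35 in DIO-VSG replicates 1 and 2 and 2.31 and 0.99 in replicates 3 and 4, against -2.34 to -0.86 in DIO-HFD. Cidea, a lipid droplet protein of brown and beige fat, was free of overlap, with 43.5, 242, 111 and 209 in DIO-HFD and 486, 286, 7266 and 2863 in DIO-VSG. Cox8b, a cytochrome c oxidase subunit of oxidative muscle and brown fat, and Ppargc1b, a coactivator of mitochondrial genes, were likewise free of overlap, with log2 differences of 2.35 ± 0.76 and 0.68 ± 0.28. In all, 4 of 18 genes were higher at an unadjusted p of 0.05, beside 5.05% of all genes, and 4 were free of overlap, beside 2.37%. Of these genes 7 were free of overlap without DIO-HFD replicates 2 and 3, beside 9.61%, and without replicates 1 and 4, 5 were beside 25.7%, a share near the background.

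General adipocyte genes overlapped between the groups. The adipocyte identity list (20 genes) had a median log2 difference of 0.00, 1 gene higher and 1 lower, and Pparg, the master regulator of adipocytes, differed by 0.01 ± 0.33. DIO-HFD replicate 1 had the lowest score, -1.14, against -0.25 to 0.39 in the other DIO-HFD mice and -0.54 to 0.04 in DIO-VSG, and without DIO-HFD replicates 2 and 3 the median was 0.46. Without replicates 1 and 4 it was -0.43, and 13 of the 20 genes lay wholly lower in DIO-VSG, beside 23.5% of all genes, so the sign depended on which DIO-HFD mice were kept. Lep, the satiety hormone leptin, had 37881, 103689, 237534 and 49364 normalized counts in DIO-HFD and 28191, 29410, 9321 and 39535 in DIO-VSG. It was lower in DIO-VSG with an overlap of 1 library of each group, and its log2 difference of -1.81 ± 0.61 became -0.88 without DIO-HFD replicates 2 and 3. Rbp4, the retinol carrier, was higher, with a log2 difference of 1.02 ± 0.39.

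Among other secreted factors, 2 of 19 tested genes were higher and 6 lower at an unadjusted p of 0.05, beside 5.05% and 8.12% of all genes. Apln, a vascular peptide also made by adipocytes, had 736, 1075, 1659 and 438 normalized counts in DIO-HFD and 201, 246, 163 and 229 in DIO-VSG. Each DIO-HFD library was above each DIO-VSG library, and DIO-HFD replicates 2 and 3 were the highest (log2 difference -2.06 ± 0.50, adjusted p = 0.243). Sfrp5, a secreted Wnt antagonist, had 6451, 32429, 26091 and 8226 in DIO-HFD and 869 to 5262 in DIO-VSG, and its relative Sfrp1 1059 to 2346 and 525 to 836.

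Extracellular matrix genes were lower in DIO-VSG. Eln, which encodes elastin (chr5:134702593-134747323, minus strand), had 6289, 7392, 9028 and 4822 normalized counts in DIO-HFD and 2588, 3519, 2301 and 3467 in DIO-VSG. No library overlapped, the DIO-HFD mean was 2.32-fold higher, and the log2 difference was -1.20 ± 0.24 (adjusted p = 0.243). Thbs2, thrombospondin 2, a matricellular glycoprotein, had 17711, 55280, 25203 and 16347 in DIO-HFD and 7687, 8335, 3764 and 7645 in DIO-VSG. DIO-HFD replicate 2 was the highest and DIO-VSG replicate 3 the lowest (log2 difference -1.94 ± 0.45). Fbln2, fibulin 2 of elastic fibers, had 7922, 19517, 16714 and 9846 in DIO-HFD and 3532, 5755, 3325 and 5363 in DIO-VSG, and its log2 difference of -1.53 was -1.02 without DIO-HFD replicates 2 and 3. Ltbp4, which holds latent TGF-beta and aids elastic fiber assembly, had 10892, 19874, 22497 and 17155 in DIO-HFD and 7643 to 8954 in DIO-VSG. Bgn, the small proteoglycan biglycan, had 21748 to 33055 and 11235 to 16611. These 5 genes were free of overlap.

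Of 30 matrix glycoproteins and proteoglycans, 13 were lower at an unadjusted p of 0.05 (beside 8.12% of all genes), 0 were higher and 11 were free of overlap on the low side (beside 4.22%), with a median log2 difference of -0.97. Without DIO-HFD replicates 2 and 3 the median was -0.75 and 13 of 30 were free of overlap, beside 8.5% of all genes. All 20 collagens had a negative difference, 7 were lower at an unadjusted p of 0.05 (beside 8.12% of all genes) and 3 were free of overlap (beside 4.22%), with a median of -0.90. Without DIO-HFD replicate 1, 11 of the 20 were free of overlap, beside 12.2% of all genes. Without replicates 2 and 3, 3 were, beside 8.5%. Col6a1, of the pericellular collagen VI, had 15960, 28144, 45324 and 21720 in DIO-HFD and 7269, 15935, 7291 and 15339 in DIO-VSG, so that the highest DIO-VSG and the lowest DIO-HFD library differed by little. Col16a1 had 4145 to 6108 and 2002 to 3167, and Col12a1 1659 to 1885 and 663 to 1259. The fibrillar collagens overlapped. Col1a1 differed by -0.76 ± 0.72 (SE), with DIO-VSG replicates 2 and 4 within the DIO-HFD range, and Col3a1 by -0.96 ± 0.87, with DIO-VSG replicate 4 within it. All 26 crosslinkers, proteases and inhibitors had negative differences, 8 were lower (beside 8.12% of all genes) and 4 were free of overlap (beside 4.22%), with a median of -0.75. Timp3, a matrix-bound protease inhibitor, had 32444 to 42676 in DIO-HFD and 17753 to 26908 in DIO-VSG, and Pcolce, which aids procollagen cleavage, 3356 to 7202 and 1913 to 3194. The medians of the collagen and crosslinker lists were -0.59 and -0.44 without DIO-HFD replicates 2 and 3.

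The promoter of Col16a1 is given as that of a collagen free of overlap, with CCAAT in capitals.
Col16a1, chr4:130047590-130047889, plus strand: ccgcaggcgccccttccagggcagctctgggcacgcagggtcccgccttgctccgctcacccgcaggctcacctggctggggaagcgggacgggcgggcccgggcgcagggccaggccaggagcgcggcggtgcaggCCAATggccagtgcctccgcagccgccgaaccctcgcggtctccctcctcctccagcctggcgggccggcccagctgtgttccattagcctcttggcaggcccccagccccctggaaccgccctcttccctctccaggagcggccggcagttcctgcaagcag
It held 1 match. Of 18 windows from 16 collagen genes, CCAAT was present in 44.4% and GGGCGG in 72.2%, against 37.4% and 35.7% of all windows, while CACGTG and TCACNCCAC were present in 0. ATGCAAAT and TATAAA were present in 5.56% each. Of 19 windows from 16 B cell genes, 31.6% held CCAAT, 42.1% GGGCGG, 21.1% TATAAA, 5.26% ATGCAAAT and 5.26% CACGTG.

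**Figure D4:**
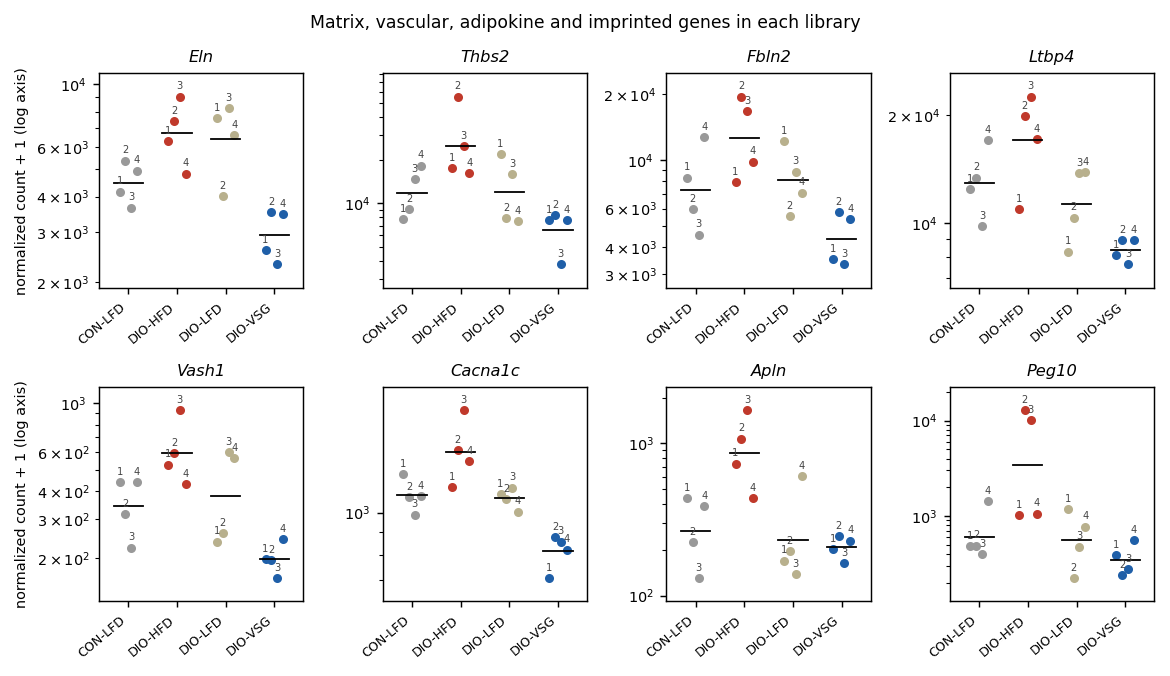
Normalized counts + 1 on log axes for 8 genes that were lower in every DIO-VSG library than in every DIO-HFD library, with 1 point per library numbered by replicate and the mean of log2 values as a line. DIO-HFD replicates 2 and 3 are the highest of their group for Peg10 and Apln, and for Eln the DIO-LFD and CON-LFD libraries lie above all DIO-VSG libraries.

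Stromal and vascular genes lay on the same side. Among 20 stromal progenitor genes 6 were lower and 0 higher, beside 8.12% and 5.05% of all genes (median -0.63, and -0.60 without DIO-HFD replicates 2 and 3). Pdgfrb, the PDGF receptor of mural and stromal cells, had 4300, 7059, 8940 and 5324 normalized counts in DIO-HFD and 2238, 4065, 2707 and 3852 in DIO-VSG. Pdgfra, the receptor that marks adipose progenitors, was free of overlap by a small margin, with 6897 as the lowest DIO-HFD and 6839 as the highest DIO-VSG value, and Creb5, a transcription factor, differed by -0.96 ± 0.27. Among 15 endothelial genes all had negative differences, 9 were lower at an unadjusted p of 0.05 (beside 8.12% of all genes) and 5 were free of overlap (beside 4.22%), with a median of -0.60. Without DIO-HFD replicate 1, 12 of the 15 were free of overlap, beside 12.2% of all genes. Without replicates 2 and 3, 5 were, beside 8.5%. Cdh5, the endothelial cadherin, had 10672, 20461, 25086 and 12787 in DIO-HFD and 8999 to 10080 in DIO-VSG (log2 difference -0.78, and -0.30 without DIO-HFD replicates 2 and 3), and Robo4 and Erg, an endothelial receptor and transcription factor, were likewise free of overlap. The DIO-HFD replicates 2 and 3 carried the highest values, and the list median without them was -0.20. Pecam1, the endothelial CD31, differed by -0.24 ± 0.19. Vash1, an endothelial inhibitor of angiogenesis, had 527, 595, 929 and 429 in DIO-HFD and 197, 194, 162 and 243 in DIO-VSG, a 3.11-fold difference of means. In TGF-beta and activin signalling 5 of 20 genes were lower, beside 8.12% of all genes (median -0.08).

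General macrophage genes overlapped between the groups and varied between mice, whereas 4 genes of lipid-associated macrophages did not overlap. Of 15 general macrophage genes 0 were called in either direction (median -0.67), and Adgre1, which encodes F4/80, had 1468, 2181, 2297 and 1549 normalized counts in DIO-HFD and 569, 1726, 600 and 1157 in DIO-VSG. DIO-VSG replicates 1 and 3 were the lowest. Of 18 genes of lipid-associated macrophages 4 were lower at an unadjusted p of 0.05 (beside 8.12% of all genes) and 4 were free of overlap (beside 4.22%), with a median of -0.38, but only Mmp12 and Dcstamp were both. Mmp12, macrophage elastase, had 403, 951, 1795 and 355 in DIO-HFD and 112, 201, 98.5 and 253 in DIO-VSG, and Dcstamp, a protein of cell fusion, 18.5 to 62.2 and 3.08 to 9.53. Their log2 differences of -2.18 and -2.44 were -1.29 and -1.74 without DIO-HFD replicates 2 and 3. Trem2, the lipid receptor that marks these cells, overlapped with 118, 268, 547 and 188 in DIO-HFD and 41.5, 207, 35.9 and 97.2 in DIO-VSG. Itgax, which encodes CD11c, differed by -0.16 ± 0.30. Among 13 complement and acute phase genes 4 were lower and free of overlap (beside 8.12% and 4.22% of all genes), among them Cfb, C4b and Hp, which encode factor B, complement C4 and haptoglobin, with log2 differences of -0.57 ± 0.17, -1.17 ± 0.37 and -1.39 ± 0.57. These were -0.37, -0.81 and -0.63 without DIO-HFD replicates 2 and 3. Hp had 9800, 17486, 50954 and 11349 normalized counts in DIO-HFD and 5479 to 8196 in DIO-VSG, and without DIO-HFD replicate 3, the highest, its difference was -0.88.

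The NF-kB list lay near the median of all genes and the interferon list below it. Of 25 NF-kB and early response genes 4 were lower, beside 8.12% of all genes (median -0.01), and Cxcl1, a neutrophil chemokine, had 98.3 to 224 normalized counts in DIO-HFD and 47.7 to 94.3 in DIO-VSG. Of 25 interferon genes 19 had a negative difference, 3 were free of overlap on the low side (beside 4.22% of all genes) and the median was -0.25. At an unadjusted p of 0.05, 1 was lower, namely Gbp2, a guanylate-binding protein, with 4144 to 4910 and 2898 to 4051. The transcripts of 3 transcription factors of interest to the study, Nfkb1, Bach1 and Fxr1, overlapped between the groups. The study named these factors from gene sets enriched in its DNA methylation data and from a regulator analysis of human adipose tissue. Transcript levels are a different measure and do not test that result. Nfkb1 differed by 0.10 ± 0.18, Bach1 by -0.23 ± 0.20 and Fxr1 by 0.11 ± 0.09, with adjusted p of 0.776, 0.543 and 0.537. Mki67, a marker of dividing cells, had 8354, 1711, 2675 and 3623 normalized counts in DIO-HFD and 2176 to 4076 in DIO-VSG. Of 30 cell cycle genes (median -0.63), 29 had a negative difference and 1 was lower at an unadjusted p of 0.05, beside 8.12% of all genes. Of these 30, 2 were free of overlap on the low side, beside 4.22%. Of 17 clock genes (median 0.26), 1 was higher, beside 5.05%.

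Imprinted genes, many of which regulate growth, were lower in DIO-VSG. Peg10 (chr6:4747306-4760517, plus strand), a paternally expressed gene of retrotransposon origin, had 1020, 12896, 10106 and 1056 normalized counts in DIO-HFD and 385, 239, 277 and 554 in DIO-VSG. The groups did not overlap, but DIO-HFD replicates 2 and 3 stood far above the other DIO-HFD mice, and the log2 difference of -3.32 ± 0.80 was -1.59 without them. Usp29, Zim1 and Peg3, which are neighbours in 1 imprinted domain on chromosome 7, showed the same split, with DIO-HFD replicates 2 and 3 far above the other DIO-HFD mice. Peg3 had 16805, 84105, 81311 and 18394 in DIO-HFD and 10787, 4787, 10080 and 9923 in DIO-VSG, Zim1 2011, 13397, 11697 and 1783 against 687 to 866, and Usp29 46.3, 309, 390 and 52.4 against lower values in every DIO-VSG mouse. Over 23 imprinted genes 8 were lower (beside 8.12% of all genes), 5 were free of overlap (beside 4.22%) and the median was -0.60 (-0.27 without DIO-HFD replicates 2 and 3). Without DIO-HFD replicate 1, 13 of the 23 lay wholly lower, beside 12.2% of all genes. Without replicates 2 and 3, 5 lay wholly lower and 1 wholly higher, beside 8.5% and 9.61%. The DIO-HFD mice with high imprinted and endothelial values were those with low lymphoid scores. In the fit that also held the B cell score the list medians were -0.29 for imprinted and -0.30 for endothelial genes, and the log2 differences were -2.39 for Peg10, -1.28 for Peg3, -1.74 for Zim1 and -0.41 for Cdh5, all closer to 0 than without it.

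The single gene with the smallest unadjusted p was Cacna1c, the alpha subunit of an L-type calcium channel (chr6:118587240-119196418, minus strand). It had 1142, 1393, 1724 and 1314 normalized counts in DIO-HFD and 706, 878, 856 and 820 in DIO-VSG, and the DIO-HFD mean was 1.71-fold higher. Its log2 difference was -0.76 ± 0.12 with an unadjusted p of 1.47e-05 in limma-trend, and it was the gene that passed the adjusted threshold with scaling to library totals, at 0.0465, within a range of 0.00089 to 0.817 over all alternatives. The other lower genes of the fixed rule were Prkar1b, a regulatory subunit of protein kinase A, Flna, the actin crosslinker filamin A, Heg1, an endothelial receptor, P3h2, a collagen prolyl hydroxylase, Dapk2, a kinase, Cacna1e, another calcium channel subunit, Megf6, Gpr173, Fam198b and the noncoding Prss23os. Their log2 differences lay between -2.06 for Fam198b and -0.64 for Heg1 (without DIO-HFD replicates 2 and 3, -1.03 for Fam198b and -1.06 for Cacna1e, which was -1.75 with them), and Prkar1b had 305, 393, 341 and 415 in DIO-HFD and 197, 231, 227 and 245 in DIO-VSG. The higher genes included Syngr1, a vesicle protein (211 to 338 in DIO-HFD and 513 to 737 in DIO-VSG), Gclc, the first enzyme of glutathione synthesis (2597 to 2906 and 4115 to 5471), and Slc5a6, a vitamin transporter (864 to 1572 and 1858 to 3664). Tmem56, Parm1 and P2rx5 differed by 1.46, 1.78 and 1.36, and Pus10, Naca and Atp6v1d by 0.34, 0.29 and 0.36, small differences with narrow groups.

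Alb, Cyp2e1 and H2-Q10, named by their small p and known from liver, were higher, while Hp, C4b and Cfb, also known from liver, were lower as given above. Alb, serum albumin, had 444, 1238, 1246 and 848 normalized counts in DIO-HFD and 1766, 2830, 2403 and 2866 in DIO-VSG (log2 difference 1.47 ± 0.34, adjusted p = 0.243). Cyp2e1, a cytochrome P450 that fat also expresses, had 1580, 3967, 6621 and 9703 in DIO-HFD and 13475, 76255, 32804 and 13162 in DIO-VSG, and H2-Q10, a secreted class I molecule, 548 to 2358 and 3343 to 8005. None of the 3 overlapped. Of 10 tested major urinary protein (Mup) genes, which encode pheromone carriers, 5 were higher (beside 5.05% of all genes) and 3 were free of overlap (beside 2.37%), with a median of 2.31. Mup11 had 0, 3.32, 0 and 3.28 normalized counts in DIO-HFD and 13.5, 50.4, 46.2 and 27.6 in DIO-VSG, and Mup9 4.63 to 46.5 and 66.4 to 352. Mup genes are near-identical copies, so the reads of single members are uncertain.

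Other tissues in the pad also varied. Of 20 mammary epithelial genes 2 were higher and free of overlap, beside 5.05% and 2.37% of all genes. Without DIO-HFD replicates 2 and 3 the list had 6 genes wholly higher and 3 wholly lower, beside 9.61% and 8.5% of all genes. Without replicates 1 and 4 it had 2 wholly higher, below the 25.7% of all genes. The 2 genes were Prlr, the prolactin receptor, with 7188 to 18775 normalized counts in DIO-HFD and 23300 to 33112 in DIO-VSG, and Krt18, a luminal keratin, with 5269 to 10686 and 11443 to 17519. Krt14, a keratin of basal cells, overlapped and differed by -0.76 ± 0.42, which was -0.48 without DIO-HFD replicate 2 or 4 and -1.20 without DIO-HFD replicate 3. Of 14 keratinocyte genes 2 were lower (beside 8.12% of all genes) and 3 were free of overlap on the low side (beside 4.22%). The list score was 3.11 in DIO-HFD replicate 4 and -0.55 to 0.23 in the other DIO-HFD mice. Krtdap, a product of differentiating epidermis, had 13.9, 17.7, 25.1 and 316 in DIO-HFD and 1.04, 4.50, 1.03 and 8.58 in DIO-VSG. Of 20 skeletal muscle genes (median 1.92), 1 was higher (beside 5.05% of all genes) and 2 were free of overlap on the high side (beside 2.37%). The list scored 3.11 in DIO-VSG replicate 2, -1.98 to 0.13 in the other DIO-VSG mice and -1.79 to -0.97 in DIO-HFD. Myh4, a fast myosin, had 2.78 to 64.2 in DIO-HFD and 350, 9788, 76.0 and 470 in DIO-VSG, and Ckm, muscle creatine kinase, 4.37 to 18.8 and 93.4, 1666, 4.11 and 132. Erythroid genes (7 genes, median -0.22) and Schwann cell genes (8 genes, median 0.00) gave 0 calls in limma-trend at an unadjusted p of 0.05.

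**Figure D5:**
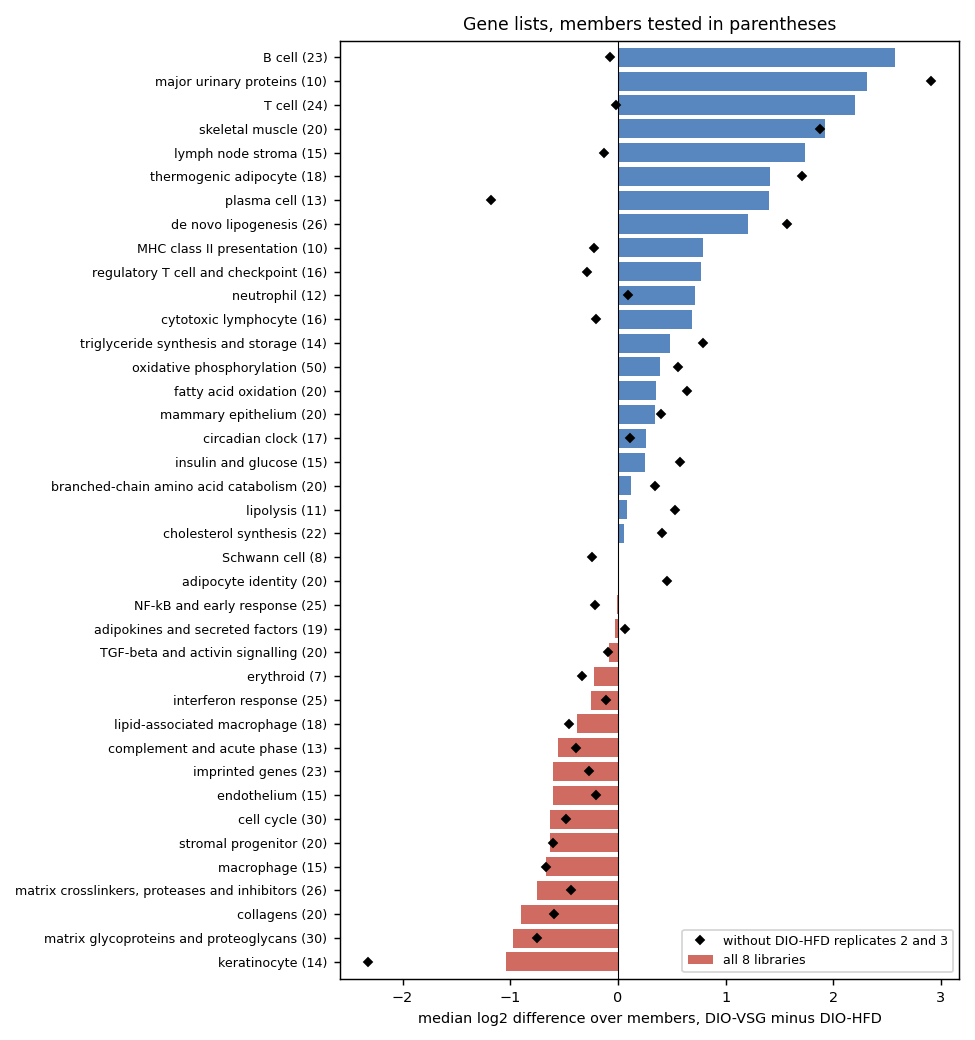
Bars give the median log2 difference between DIO-VSG and DIO-HFD over the tested members of 39 gene lists (x axis), with the number of members in parentheses, and diamonds the same median without DIO-HFD replicates 2 and 3. The B cell and T cell diamonds lie near 0, whereas those of de novo lipogenesis and of the matrix lists stay on the side of their bars.

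To ask how the surgical group compared with mice that had lost weight on the low-fat diet alone, DIO-VSG was set against DIO-LFD in the same fit. In limma-trend 0 genes passed the adjusted threshold (smallest adjusted p = 0.427), and at an unadjusted p of 0.05, 913 were higher (4.3%) and 1148 lower (5.41%). Lipogenic genes had a median log2 difference of -0.04, with 0 of 26 higher and 1 lower. Acaca differed by -0.09 ± 0.59 (SE) and Fasn by 0.36 ± 1.02, intervals too wide to call the groups alike. Fasn ranged from 21753 to 694004 normalized counts in DIO-LFD, with replicate 1 the lowest there too, and from 84150 to 474207 in CON-LFD. Oxidative phosphorylation had a median of -0.12, with 0 of 50 higher and 1 lower. Matrix genes lay on the low side, with medians of -0.56 for glycoproteins and proteoglycans (4 of 30 lower), -0.49 for collagens (1 of 20 lower) and -0.58 for stromal progenitors (7 of 20 lower), against -0.02 over all genes. Eln had 4013 to 8204 normalized counts in DIO-LFD, all above the DIO-VSG maximum of 3519, a log2 difference of -1.13 ± 0.24 with an adjusted p of 0.427. Cacna1c differed by -0.41 ± 0.12 and Prkar1b by -0.59 ± 0.13. T cell genes had a median of 1.44 with 1 of 24 higher, and B cell genes 1.18 with 0 of 23 higher.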

How the data were processed

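Total RNA of the contralateral mammary fat pad was sequenced by the authors as stranded paired-end libraries (n = 4 mice per group, 16 in all). The study's methods name STAR, salmon and GRCm38, whereas the submitters' processing notes name TopHat2 2.0.7, HTSeq 0.5.3p9 and mm10. The authors normalized with DESeq2, and every listed gene held at least 10 reads in total. The deposited values are variance-stabilized log2 values made by the authors, the lowest being 5.36 in each library. The design had assumed normalized counts, so the transformation was inverted, and dividing by each library's step gave whole reads within 0.1 for 100.0% of values. 

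limma-trend (limma 3.58.1, R 4.3.3) was fitted to log2(normalized count + 1) of the 16 libraries with no term other than group, and p values were adjusted by Benjamini-Hochberg over 21218 genes. Tests were two-sided, and differences on this scale understate those of low genes. With 4 against 4 libraries the exact permutation test gives no p below 0.0286, the value of every gene free of overlap. Replicates differed beyond sampling noise (chi-square per gene at least 64.4). Numbered replicates did not pair the mice. Gene positions came from GENCODE M21 (95.7% of symbols matched once). Named genes were the 14 higher and 14 lower genes with the smallest p among those free of overlap with a mean of at least 100 counts, leaving out predicted genes, clones, pseudogenes and receptor segments, up to 4 genes per list, and lead genes taken whatever their values. The comparison, the 39 gene lists and the lead genes were chosen with earlier results of these data known. Code was tested on simulated data. Alternatives were the scale, pseudocount, filter, scaling, weights, replicate block, B cell score, features and left-out libraries. The labels give no sequencing batch.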

Additional observations from a re-analysis of the deposited data

Results flagged for a closer look

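In 288 groups of 4 values, for named genes and gene list scores in DIO-VSG and DIO-HFD, the gap of the highest or lowest library to its neighbor was set against the range of the group (Dixon's ratio), and 14 (4.86%) exceeded the 95% critical value for 4 samples. Chance alone gives about 1 in 20 such groups.

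DIO-VSG replicate 1 was low for Fasn (0.8780) and Slc2a5 (0.8848) and high for Cd3e (0.8579) and the T cell score (0.9389). DIO-VSG replicate 2 was high for Prss23os (0.8332), Cpt1a (0.8903) and Rpl23a-ps3 (1.0000, the other DIO-VSG mice all being at 0) and low for Peg3 (0.8973) and the endothelium score (0.8516). DIO-VSG replicate 3 was low for Thbs2 (0.8913), Cfb (0.8544) and the NF-kB and early response score (0.9019). DIO-HFD replicate 1 was low for Atp5c1 (0.8294), and DIO-HFD replicate 2 was high for the interferon response score (0.8901).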

How the results depend on the processing

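The count of genes past the adjusted threshold, 0 in limma-trend, was 1 with scaling to library totals (Cacna1c), 3739 with library weights and 4122 without DIO-HFD replicates 1 and 4, and it ranged from 0 to 1 when single libraries were left out, the 1 being Rpl23a-ps3 without DIO-VSG replicate 2 (adjusted p = 0.0445). At an unadjusted p of 0.05, 2794 genes became 7184 with library weights, 1247 without DIO-HFD replicates 2 and 3, 7471 without replicates 1 and 4, and 1580 (without DIO-VSG replicate 3) to 5820 (without DIO-HFD replicate 1) with 1 library left out, with 1665 and 1836 without DIO-HFD replicates 2 and 3 singly. Genes free of overlap numbered 1399 in all 8 libraries and 1593 to 5432 with 1 left out. The cause of these shifts was not tested. Both pair removals were chosen after seeing the data. The share of higher genes was 38.3%, and 22.0% with scaling to library totals, 49.7% with weights, 60.2% with the B cell score and 68.3% without DIO-HFD replicates 2 and 3.

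The log2 difference of Scd1, 1.30, was 0.00 after quantile normalization, which was fixed by construction, since Scd1 was the most abundant gene in all 8 libraries and that method gives the top rank 1 value; this says nothing of its stability. That of Adipoq, -0.03, was 0.15 after quantile normalization, 0.06 with weights, 0.37 with the B cell score, 0.53 without DIO-HFD replicates 2 and 3 and -0.38 to 0.19 with 1 library left out. Pparg, at 0.01, was -0.03 with scaling to library totals, -0.42 without DIO-HFD replicates 1 and 4 and -0.30 to 0.24 with 1 library left out, and Itgax, at -0.16, was 0.21 and -0.38 to 0.09. Mki67, at -0.15, was 0.53 without DIO-HFD replicates 1 and 4 and -0.48 to 0.28 with 1 library left out. Without DIO-HFD replicates 2 and 3, Ptprc was -0.04, Cd3e -0.01, Cd79a -0.03, Ms4a1 -0.13 and Nfkb1 -0.20. With the B cell score, Cd79a was -0.02, Ms4a1 -0.11 and Nfkb1 -0.15, and Nfkb1 was -0.00 to 0.28 with 1 library left out. Of 3147 values of named genes under the alternatives, 2977 kept direction and side of the threshold, 143 passed it and 27 reversed.

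With the replicate number as a block, 0 genes passed the adjusted threshold and 2508 the unadjusted one. Same-numbered DIO-HFD and DIO-VSG libraries correlated at 0.146, -0.093, -0.107 and -0.137, so the numbers were not taken as pairs.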

Other observations

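Rpl23a-ps3, a processed pseudogene of a ribosomal protein gene (chr14:34170655-34171122, plus strand, GRCm38) chosen after its values were seen, had the most negative log2 difference of the 21218 tested genes. It had 567, 720, 1466 and 2307 normalized counts in DIO-HFD and 0, 92.6, 0 and 0 in DIO-VSG, and the fitted difference of -8.45 ± 1.55 (SE, limma-trend adjusted p = 0.243, range 0.00089 to 0.817 over the alternatives) depends on the pseudocount. In DIO-LFD it had 798, 2066, 569 and 518, and in CON-LFD 0 to 131, so that the high values lay in DIO-HFD and DIO-LFD. Reads of a processed pseudogene can be split with its parent gene and its other copies, so these counts are uncertain.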
